A study of Drosophila melanogaster with 6 samples.

Results

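The first hour of a uridine-only chase was described across genes in whole Drosophila melanogaster embryos, as the difference between 1 array of tagged RNA collected after the chase and 1 array collected at the end of the pulse. Members were the genes with a value for both arrays in the authors' normalized table, which held for 8340 genes (9654 probes, of which 9575 had a gene) of 13180 genes named on the array. The second source was the pair of scanner files of the same 2 samples, in which 8499 genes were above background on both arrays. Embryos of stage 12 to 15, of the strain UAS-T.g.UPRT (no GAL4) and labelled wildtype, were permeabilized and given 1 mM 4-thiouridine for 1 hour at 30 °C in medium with 5% serum. They were collected then (UO 1-hour pulse) or after 1 hour in medium with 10 mM uridine (UO 1-hour chase), where UO stands for uridine only. A parallel pair, labelled as actinomycin D treated (U+actD), had the same strain, stage, pulse and chase time, with the transcription inhibitor in the chase. The strain carries no GAL4 to drive its transgene, and 4-thiouridine is taken up independently of that enzyme in all tissues. Several collections were pooled for each time point before the RNA was extracted, so each group was 1 pool on 1 single-channel Agilent array and no group had a replicate. All values below therefore compare 2 arrays, no test between conditions was possible, and spreads are over spots, probes or genes.

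In TU-decay, cells take up 4-thiouridine and build it into the RNA they make, and the thiol group lets that RNA be biotinylated and purified away from older RNA. When the medium is changed to an excess of uridine, new transcripts carry little tag, and the tagged pool shrinks as messages are degraded. Short-lived messages, classically those of transcription factors and of signalling proteins, lose tagged signal early, while messages for ribosomal proteins, respiratory enzymes and the cytoskeleton lose it slowly. The first hour is the step in which the shortest-lived messages separate from the rest.

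The deposited sources of this comparison differed. Across 7671 genes with values in both, the log2 change of a gene relative to the median gene had a Spearman's rho of -0.22 and a Pearson's r of -0.20 between the UO table and the UO scanner files, a description over genes that share the same named samples. Restricting this to 3763 genes at 500 or more in all 4 columns gave a rho of -0.19, and leaving out saturated genes gave -0.22 over 7457 genes. The same measure between the UO table and the U+actD table was 0.38 over 7940 genes, and between the UO scanner files and the U+actD table it was -0.09 over 7898 genes. In levels over 9152 probes, the scanner file labelled UO 1-hour pulse ranked more like the UO table's chase column (rho = 0.93) than its pulse column (rho = 0.88). Its rank order was also closer to the scanner file of the U+actD 3-hour chase (0.93) than to that of the U+actD pulse (0.82). By contrast, the U+actD pulse file ranked more like the UO table's pulse column (0.89) than its chase column (0.82). Which source holds the arrays that the labels name cannot be told apart here. The table is used as the main source, the scanner files labelled pulse and chase are given beside it, and a direction found in 1 of them only is stated as such.

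**Figure D1:**
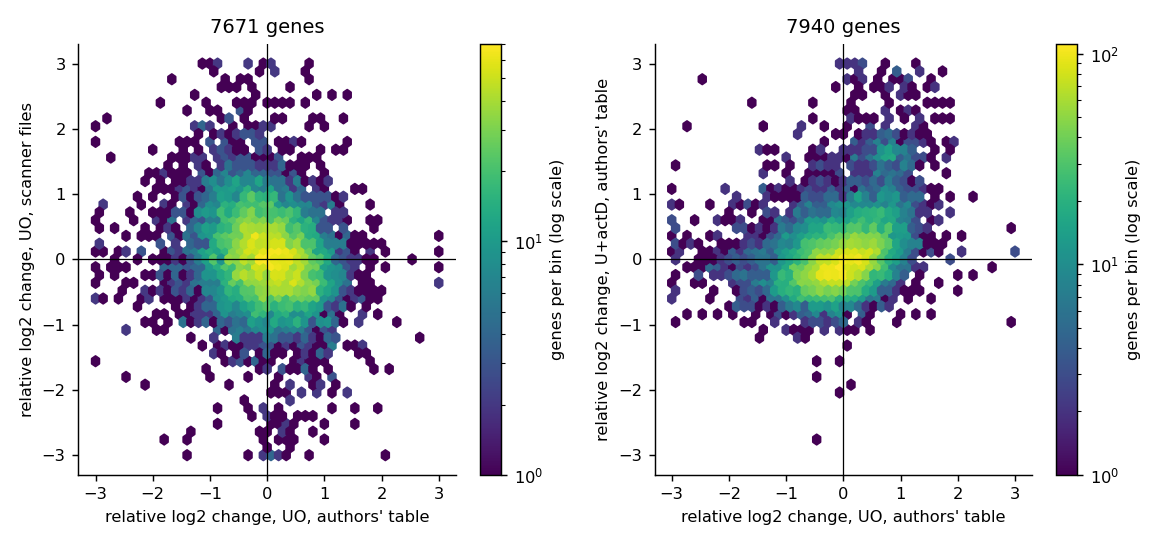
Log2 change in the first hour relative to the median gene, in the UO table (x axis) against the UO scanner files (left, 7671 genes) and against the U+actD table (right, 7940 genes), with values past 3 drawn at 3 and the colour giving genes per bin on a log scale. The left cloud leans downwards (rho = -0.22) and the right cloud upwards (rho = 0.38).

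The precision of these single arrays came from repeat measurements within them. In 933 genes with several probes in the UO table, the SD of the log2 change over probes had a median of 0.32, and in 64.1% of them all probes lay on the same side of the median gene. Repeated spots could not be used in that source, because all spots of a probe carried the same value in both columns for 100% of 5996 probes. On the UO scanner arrays the SD over spots of a probe had a median of 0.17 (5484 probes), and in the U+actD table it was 0.14 (5693 probes). A difference of 1 log2, a factor of 2, from the median gene is used below to count genes that stood apart, and it is about 3 times the spread between probes in the table. Markers of neurons (elav), neuroblasts (dpn, wor, ase), glia (repo), muscle (Mef2, Mhc), trachea (trh), hemocytes (srp), gut (GATAe) and germ line (vas) all had values in both columns of the UO table. Pulse values of these genes ran from 1388 for vas, a germ line helicase, to 23425 for elav, a neuronal RNA-binding protein. Other markers listed were dimmer in the pulse: neuronal brp (410), Syt1 (1272) and nSyb (1351), hemocyte Pxn (869) and amnioserosa Kr (431). Muscle Act57B (71433) and amnioserosa peb (28848) were brighter, and the markers Hml and nos had no value.

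Most genes had less tagged RNA at the end of the hour. On the scale of the authors' table the median gene stood at 67.0% of its pulse value after 1 hour (95% order interval over genes 66.3% to 67.7%), and relative to it the quartiles over genes were -0.42 and 0.41 on the log2 scale. There 1422 genes (17.1%) were above their pulse value in the chase, 2095 (25.1%) were below 50% of it and 281 were below 25%. The scanner files, scaled on spike-in transcripts, placed the median gene at 64.3%, with quartiles of -0.39 and 0.41 around it, and the U+actD table placed it at 63.0%, with quartiles of -0.26 and 0.33. These medians depend on how the 2 arrays are put on 1 scale. Before scaling, the 5 usable spike-in transcripts were 2.45 times as bright in the UO chase scanner file as in the pulse file, so that chase was scaled by 0.408. The UO table instead carries factors of 1.09 for the pulse and 1.3 for the chase, and without them its median gene stood at 56.2%. The chase was thus scaled down in 1 source and up in the other. Changes relative to the median gene do not depend on the scale of either array and are used from here on, with 0 for the median gene. Percents of the pulse value and counts of genes above it, given beside them, do depend on that scale.

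**Figure D2:**
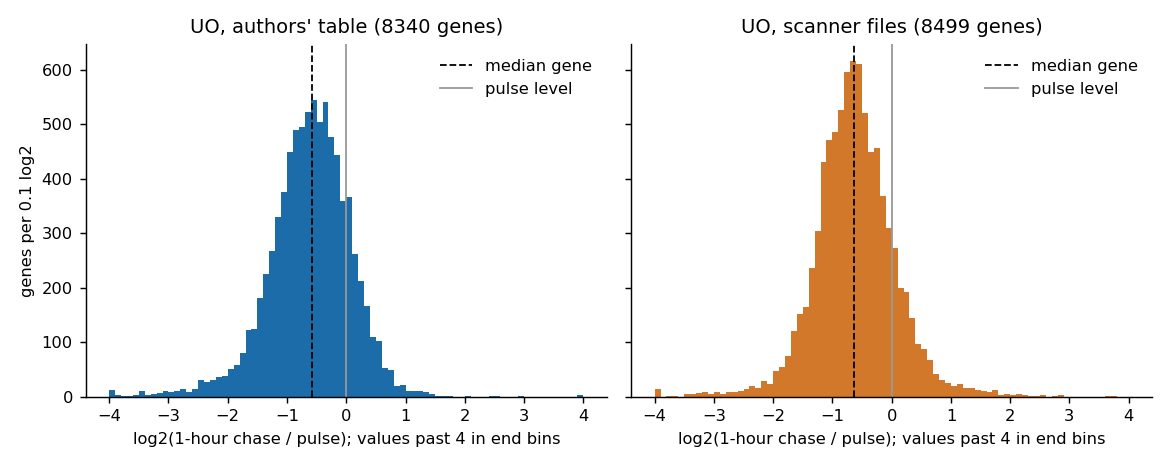
Number of genes per 0.1 log2 of change from pulse to 1-hour chase in the UO table (left, 8340 genes) and in the UO scanner files (right, 8499 genes), with the median gene dashed and the pulse level in grey. Both distributions centre below the pulse level, at 67.0% and 64.3% of it.

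Counted in the UO table, 382 genes (4.58%) stood at least 1 log2 above the median gene and 621 (7.45%) at least 1 log2 below it. Dim genes weighed on the low count: 333 of the 621 lay in the dimmest of 5 equal groups by mean signal, and without the dimmest 25% of genes the counts were 237 and 276. Since blanks in the table followed the pulse, with a lowest pulse value of 300.8, the 582 genes with a chase value below that could enter only as falls, and 249 of the 621 were among them. The counts over all genes were 547 (6.44%) and 437 (5.14%) in the scanner files, and 630 (6.93%) and 111 (1.22%) in the U+actD table. Of the 7671 genes in both UO sources, 3226 (42.1%) lay on the same side of the median gene. Only 12 (0.156%) stood 1 log2 above it in both and 17 (0.222%) 1 log2 below it in both, against 41 (0.534%) and 81 (1.06%) with opposite calls. Between the UO and U+actD tables, which share no array, 127 genes were 1 log2 above in both. They were 37.2% of the 341 such UO genes and 22.5% of the 564 such U+actD genes. A spot at the highest value of both U+actD columns comes out at 1.61, so it is called 1 log2 above by construction. Of 9095 U+actD genes, 440 were near the highest value of at least 1 column and 95 of both. How many of the 127 were among them was not counted. At the low end 4 genes were shared, 0.697% of 574 and 14.8% of 27. These were the cell adhesion gene Con, the zinc finger gene salr, the lipid kinase gene PIP5K59B and CG6362. No gene was 1 log2 above in UO and 1 log2 below in U+actD, with 341 and 27 such calls among 7940 genes. The reverse held for 24 genes, 4.18% of 574 and 4.26% of 564, where 6.93% of all U+actD genes were 1 log2 above.

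Messages for the basic machinery of the cell lay above the median gene in the UO table, as the plot by gene list shows. Of 84 cytosolic ribosomal protein genes measured, 82 were above it, where 50% of all genes were, with a median relative change of 0.82 and a median of 118% of the pulse value left. RpS21, in the middle of the list, went from 19683 in the pulse to 23176 in the chase, RpS10a at the top from 857 to 1448 and RpL30 at the bottom from 61552 to 27369. At least 1 log2 above the median gene stood 19 of the 84, and none stood 1 log2 below, where 4.58% and 7.45% of all genes did. In the UO scanner files the median was -0.38, with 15 of 85 above and 65 of the 85 with a saturated probe, so the direction holds in the table and not in the scanner files. These messages are among the brightest on the arrays, and 57 of the 84 were at the top of the scale, taken as 90% or more of the highest value the scanner can record, in at least 1 of the 2 columns, 26 of them in both. A spot at that ceiling in both columns has a relative change of 0.83 by construction, set by the fall of the median gene. The factors of 1.09 and 1.3 that the table carries for the pulse and the chase cancel in a relative change. The 27 ribosomal protein genes below the top of the scale had a median of 0.86, with 25 above the median gene. The U+actD columns have a ceiling too, where a spot at the highest value of both comes out at 1.61. The U+actD median of 1.63 lies there, with 66 of 85 genes at 90% or more of the highest value in at least 1 column, and the 19 others had a median of 1.43. Relative to genes of like mean signal the list's median was 0.12.

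Mitochondrial ribosomal protein genes, whose products make the organelle's own ribosomes, had a median relative change of 0.43 with 63 of 71 above the median gene. None was at the top of the scale. The middle gene, mRpL32, went from 1433 to 1296, which left 90.4% of the pulse value. Genes of the respiratory chain encoded in the nucleus had a median of 0.62 with 64 of 71 above. Of the 71, 40 were above their pulse value on the scale of the table, where 17.1% of all genes were. ND-13A, a subunit of complex I, was the highest of these, at 11256 in the pulse and 19205 in the chase, and ND-ASHI, another subunit, lay in the middle at 18501 and 19054. Transcripts of the mitochondrial genome itself lay above the median gene in 10 of 10 cases, with a median of 0.84, and ranged from 0.04 for COX3 (47498 to 32639) to 1.17 for COX1 (43655 to 65603), both cytochrome oxidase subunits. For this last list the scanner files had the same sign, with a median of 0.39 and 6 of 10 above, but 5 of the 10 had a saturated probe there and 3 were at the top of the scale in the table. They gave -0.30 for the mitochondrial ribosomal proteins and -0.18 for the respiratory chain. The U+actD medians were 0.18, 0.63 and 1.59 for mitochondrial ribosomal proteins, respiratory chain and mitochondrial genome. The last is close to the value of 1.61 that the U+actD ceiling gives, with 8 of its 11 genes at the top of a column.

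Protein synthesis and turnover genes behaved alike in the table. Translation factors had a median relative change of 0.54 with 37 of 45 above the median gene, led by eEF1gamma, an elongation factor subunit, which went from 32404 to 73714. The helicase eIF4A went from 57943 to 70178, or 121% of its pulse value, and lay at 0.85 in the UO table, 0.32 in the scanner files, where a probe was saturated, and 1.77 in U+actD, where the chase was at the ceiling. The initiation factor eIF5 was lowest, at 7692 in the pulse and 2994 in the chase. Proteasome genes had a median of 0.45, with 31 of 35 above and a range from -1.43 for Rpn13R, a ubiquitin receptor related gene, to 1.06 for Prosalpha7, a core subunit that went from 12019 to 16817. All 12 histone genes with values were above the median gene (median 0.76), out of 115 listed, most of which are near-identical repeat copies that the array cannot separate. The linker histone gene His1:CG33804 was lowest of them (9756 to 8688) and His4:CG33907 highest (19472 to 31485). In the scanner files the medians of translation factors, proteasome and histones were -0.05, -0.13 and -0.65, and in U+actD they were 0.55, 0.35 and 1.51. Among translation factors, 16 of 46 were at the top of a U+actD column, and the other 30 had a median of 0.25. In the UO columns 8 of the 45 translation factors were at the top of the scale, and the 37 others had a median of 0.42. Of the U+actD histone values 7 of 15 were at the top of a column, and the other 8 had a median of 0.74.

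**Figure D3:**
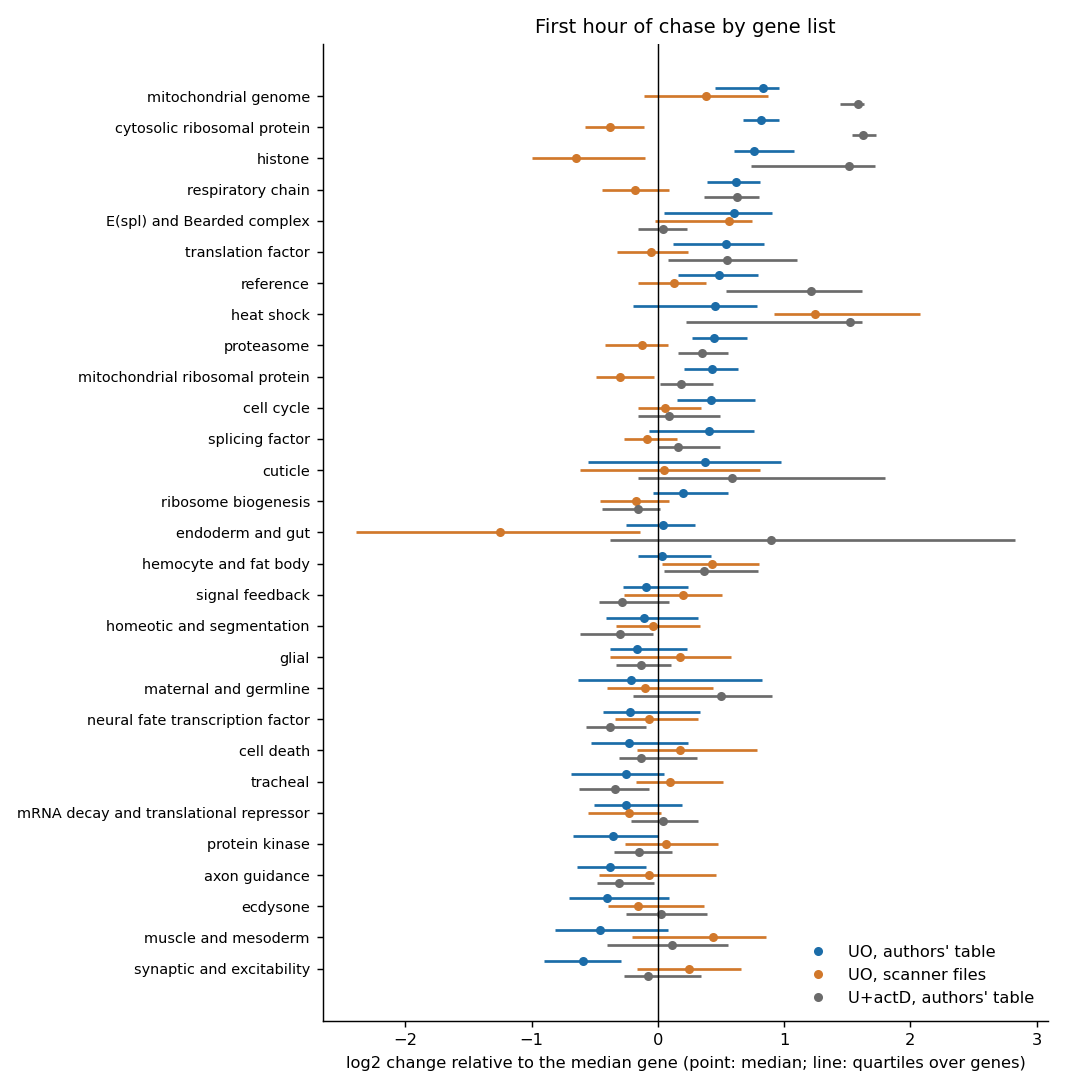
Log2 change in the first hour relative to the median gene for each gene list with 10 or more measured genes, in the UO table, the UO scanner files and the U+actD table, with points for medians and lines for quartiles over genes. Lists are ordered by the UO table, from the synaptic list at -0.59 to the mitochondrial genome at 0.84.

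Lists of cell cycle, splicing factor and ribosome biogenesis genes also lay above the median gene in the table. Cell cycle genes had a median of 0.42, with 44 of 51 above the median gene. The cyclin-dependent kinase Cdk2 was highest (8455 to 12945), and the spindle checkpoint gene Bub3 lay in the middle (14255 to 12769). The Rb family gene Rbf2 was lowest (754 to 168), with a chase value under the lowest pulse value, so it could enter only as a fall. The median of the cell cycle list was 0.05 in the scanner files and 0.09 in U+actD. Splicing factor genes had a median of 0.41 with 26 of 38 above, and the SR protein gene SC35 was highest at 1.09 (40683 to 58045). Their scanner median was on the other side, at -0.08 with 16 of 38 above, and that of U+actD was 0.16 with 28 of 38 above. Ribosome biogenesis genes were nearer the middle, with a median of 0.20 and 22 of 30 above, a direction found in the table only, since it was -0.17 in the scanner files and -0.16 in U+actD. Myc, the growth regulator counted with them, was their lowest member, going from 12164 to 4820, or 39.6% of its pulse value, and Fib, the nucleolar methyltransferase fibrillarin, was the highest, at the ceiling in both columns (71306 and 84170). Relative changes of Myc were -0.76 in the UO table, 0.17 in the scanner files and -0.53 in U+actD.

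Genes of the E(spl) and Bearded complexes are direct targets of Notch, small genes that are switched on and off within short windows in the nervous system, and their messages are known for short lives. In the UO table they lay above the median gene. All 16 were measured, 13 were above it, the median relative change was 0.60, and 9 were above their pulse value, where 17.1% of all genes were. Members other than the lowest, middle and highest are named here after their values were seen. The bHLH repressor gene E(spl)m3-HLH was lowest, going from 55813 to 27162 (-0.46), and the Bearded family gene E(spl)m6-BFM followed, from 4646 to 2388 (-0.38). In the middle, E(spl)malpha-BFM held its level, at 45018 and 45020 (0.58). E(spl)m8-HLH went from 17400 to 21577 (0.89) and E(spl)mgamma-HLH from 8649 to 10897 (0.91). At the high end stood Brd, from 1874 to 2736 (1.12), E(spl)m5-HLH, from 9665 to 14932 (1.21), and Tom, from 48846 to 78467 (1.26), the last at the top of the scale in the chase.

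Both UO sources had the same sign for this list. The scanner files gave a median of 0.57 with 12 of 16 above the median gene, although the members at the top differed: Ocho was at 2.05 and E(spl)m4-BFM at 1.47, while Brd was at -0.34 and E(spl)m8-HLH at -0.20. In U+actD the list sat on the median gene, with a median of 0.04, 9 of 16 above and a median of 64.9% of the pulse value left. There E(spl)m5-HLH was at -0.39 and Tom at 1.81, the latter near that array's ceiling. The difference between UO and U+actD was not tested, since each side has 1 array. Beside these genes, which have a median span of 960 bp, stands the level of other short genes: relative to genes of like span the list's median in the UO table was 0.19, with 10 of 16 above.

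**Figure D4:**
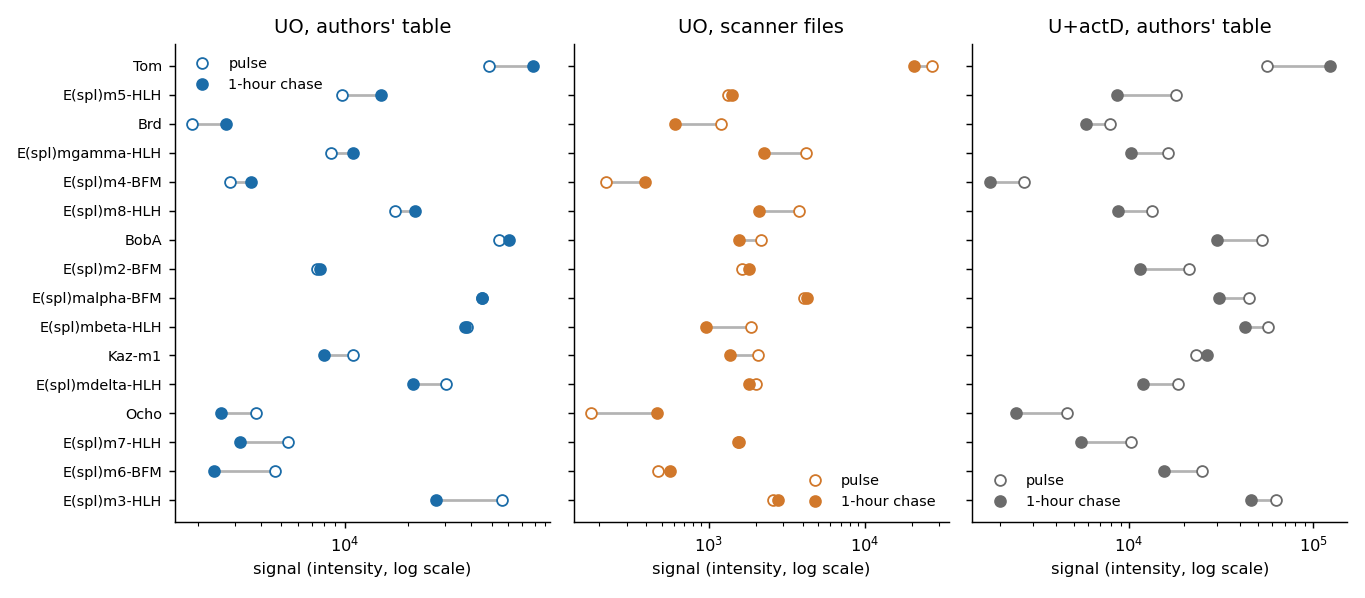
Signal at the pulse (open) and after the 1-hour chase (filled) for the 16 E(spl) and Bearded complex genes in the UO table, in the UO scanner files with the chase scaled on spike-in transcripts, and in the U+actD table, each on a log axis of its own. Genes are ordered by the UO table, in which 9 of 16 are above the pulse, where 17.1% of all genes are. In U+actD 2 of 16 are, where 12.6% of all genes are.

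Transcription factors that set neuroblast and neuron identity lay slightly below the median gene, with a median relative change of -0.22, 28 of 71 above it and 57.4% of the pulse value left. The U+actD median was -0.38 with 14 of 70 above, and the scanner files gave -0.07 with 32 of 67 above. In RNA of whole embryos, fewer cells of a type and less RNA per cell cannot be told apart. Within the list the proneural genes spread widely: l(1)sc was highest (2249 to 4362, 1.53), and its neighbour and relative sc was lowest (320 to 59.8, -1.84), with a pulse value close to the smallest in the table. The 3 genes of this list called low all had a chase value under the lowest pulse value and could enter only as falls. The neuroblast repressor dpn went from 4533 to 2800, or 61.8% of its pulse value, and lay at -0.12. The Notch target Hey, which acts in newborn neurons, went from 4441 to 6556 (1.14), and pros, which ends neuroblast self-renewal, from 7748 to 8039 (0.63, with its 2 probes at 0.47 and 0.80). Both were below the median gene in the scanner files (-0.16 and -0.69) and in U+actD (-0.14 and -0.18).

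Among the factors that neuroblasts express in sequence, cas went from 2645 to 2130 (0.27, probes at -0.27 and 0.80), svp from 2357 to 1015 (-0.64 over 4 probes, from -0.97 to -0.26) and nub from 3850 to 1923 (-0.42). The orphan receptor gene svp was below the median gene in all sources, at -0.27 in the scanner files and -0.88 in U+actD. The glial switch gene gcm went from 4046 to 2893 (0.09).

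Genes for growing and working neurons were lower. Of 62 axon guidance genes measured, 13 were above the median gene, and the median relative change was -0.38, with 51.6% of the pulse value left. Of the 62, 1 stood 1 log2 above the median gene and 5 stood 1 log2 below, where 4.58% and 7.45% of all genes did. The low count was near the share over all genes. The secreted semaphorin gene Sema2b was lowest (7526 to 1980, -1.35), and the transmembrane semaphorin gene Sema1a lay at -1.11 (8166 to 2531, probes at -1.53 and -0.69). The receptor gene robo1, which reads the midline repellent Slit, went from 17532 to 6874 (-0.77), and its relative robo2 from 66281 to 65818 (0.57, at the top of the scale). CadN, the neural cadherin, was the exception at the high end, with 1784 in the pulse and 4579 in the chase (1.94). U+actD gave a like median of -0.31 (15 of 66 above), and the scanner files -0.07 (28 of 63 above). Sema2b, Sema1a and robo1 were below the median gene in all 3, at -0.45, -0.86 and -0.15 in the scanner files and -0.79, -0.31 and -0.40 in U+actD. robo1, robo2 and CadN were picked after their values were seen, except that CadN is the list's highest member.

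Synaptic and excitability genes were the lowest list of the UO table, with a median of -0.59 and 7 of 43 above the median gene. Of the 43, 9 stood 1 log2 below it, where 7.45% of all genes did. Many of them were dim, with a median pulse value of 1465. The potassium channel gene eag went from 557 to 49.4, Sap47, a synapse-associated protein gene in the middle of the list, from 4524 to 2007, and the vesicle calcium sensor gene Syt1, at the top, from 1272 to 2077. With a chase value under the lowest pulse value, eag could enter only as a fall, and so could 11 of the 43 genes and 3 of the 9 called low. Bright members were low too, such as the vesicle priming gene unc-13 (25451 to 7587, -1.17) and the fusion protein gene Syx1A (35578 to 13451, -0.83), both picked after their values were seen. CaMKII, the calcium-dependent kinase of synapses, went from 4634 to 1803 (-0.78, probes at -1.33 and -0.24) and lay at -0.14 in the scanner files and -0.49 in U+actD. The scaffold gene dlg1 was at -0.64, -0.62 and -0.22 in the same order, with its 4 table probes from -1.01 to 0.17. Arc1, whose protein forms capsids that carry RNA, went from 36609 to 16973 (-0.53) and was at -0.31 in the scanner files, but in U+actD it went from 36285 to 100644 (2.14). For the list as a whole the other sources did not share the low median: it was 0.25 in the scanner files, with 24 of 42 above, and -0.07 in U+actD, with 22 of 48 above.

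Muscle and mesoderm genes had a median relative change of -0.45, with 13 of 45 above the median gene. Of the 45, 6 stood 1 log2 below it, where 7.45% of all genes did. The giant sarcomere kinase gene bt (projectin) was lowest, from 10461 to 2090, and all 4 of its probes were low, from -2.07 to -1.51, a fall found in the table only, since bt was at 0.45 in the scanner files and 0.27 in U+actD. Myosin heavy chain, Mhc, went from 14736 to 5539 (-0.83) and the muscle regulator Mef2 from 5514 to 1983 (-0.90), while Zasp66, a Z-disc gene, was highest (1917 to 2289, 0.83). A subset of 20 sarcomere genes, formed after the values were seen, had a median of -0.48 in the UO table, 0.77 in the scanner files and 0.55 in U+actD. The other 25 muscle genes, mostly regulators and fusion genes, were at -0.43, 0.05 and -0.40.

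Epidermal genes differed by function in the table. The cuticle list had a median of 0.37 with 34 of 58 above the median gene. It held 14 genes 1 log2 above and 7 genes 1 log2 below, where 4.58% and 7.45% of all genes were. Its genes were short, with a median span of 1110 bp. Relative to genes of like span the list's median was -0.04, with 27 of 58 above. Its subsets were not set against genes of like span. The 41 structural cuticle protein genes among the 58, separated after the values were seen, had a median of 0.57 with 31 above, and all 14 of the high calls. The 12 genes for chitin synthesis and modification had a median of -0.82 with 3 above. The chitin deacetylase gene verm was the lowest of all (11622 to 2644, -1.56), and the chitin synthase kkv went from 6066 to 2165 (-0.91). Ccp84Ad, a cuticle protein gene, was the highest (362 to 1045, 2.11), and Twdlbeta, of the Tweedle family, lay in the middle (1232 to 1058). Among 11 Tweedle genes, 10 were above the median gene and 6 stood 1 log2 above it. U+actD had the same order, with medians of 0.97 for structural proteins, 1.83 for Tweedle genes and -0.36 for the chitin genes. In the scanner files the structural proteins were at -0.19 and the chitin genes at 0.57, both on the other side, while the Tweedle genes stayed above the median gene at 0.55 with 8 of 14 above. There verm was at 1.596 and kkv at 1.57. Cuticle protein genes lie in clusters of close relatives, and probes may not separate all of them.

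Gut genes had a median of 0.04 in the UO table, with 21 of 37 above the median gene, but the 3 sources parted widely on the digestive proteases within the list. The Jonah and trypsin genes, serine proteases of the midgut that were set apart after their values were seen, had a median of 0.20 in the UO table over 17 genes, with 1 standing 1 log2 above and 1 standing 1 log2 below. All 16 measured in the UO scanner files were 1 log2 or more below the median gene, with a median of -2.45 and a range from -3.01 to -1.40. In U+actD all 14 measured were above it, 13 of them by 1 log2 or more, with a median of 2.90. Jon99Fii, picked after its values were seen, went from 22067 to 18165 in the UO table (0.30), and was at -2.97 in the scanner files and 3.21 in U+actD. These genes belong to families of relatives, and how well the probes separate them was not tested. The other 20 gut genes, such as the GATA factor gene GATAe (9516 to 4378, -0.54) and the forkhead gene bin (7467 to 5144, 0.04), had medians of -0.09, -0.15 and -0.31 in the UO table, the scanner files and U+actD.

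Heat shock genes were bright in the pulse, which was carried out at 30 °C as was the chase, with a median pulse value of 43312 over 24 genes. Their median relative change was 0.45 in the UO table with 15 of 24 above the median gene, 1.25 in the scanner files with 23 of 26 above, and 1.52 in U+actD with 22 of 25 above, where 14 of the 25 were at the top of a column and the other 11 had a median of 0.22. Hsp23, a small heat shock protein gene, went from 47332 to 84884 (1.42), at the top of the scale in the chase, and was at 2.53 in the scanner files and 1.94 in U+actD. Hsp68 went from 49166 to 76652 (1.22), and the cytosolic Hsp90 gene Hsp83 from 61380 to 84993 (1.05, at the top of the scale in the chase). Hsp70Ba, in the middle of the list, was at 71433 and 65194, with the pulse at the ceiling. The Hsp70 and small heat shock protein genes, grouped after their values were seen, had medians of 0.77 over 11 genes, 2.02 over 12 and 1.62 over 11 in the same order, the last close to the value that the U+actD ceiling gives. The cochaperone gene stv stood against this in the table alone: it went from 36326 to 6848 (-1.83), and was at 1.14 in the scanner files and 0.95 in U+actD. Of these values, 8 of the 24 were at the top of the scale, and the 16 below it had a median of 0.02. Relative to genes of like mean signal the median of the heat shock list was -0.04 in the UO table.

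Further lists of regulatory genes, not limited to a tissue, had medians below the median gene in the table. Protein kinase genes had a median of -0.35 with 20 of 80 above, against 0.06 in the scanner files and -0.15 in U+actD. The protein kinase N gene Pkn was the highest (396 to 3034, 3.52), Dsor1, the MAP kinase kinase of the Ras pathway, lay in the middle (13584 to 7051), and the Hippo pathway kinase wts was at -0.82 (12272 to 4659). Homeotic and segmentation genes had a median of -0.11 with 19 of 46 above, and ran from gt (541 to 35.1, -3.37) to run (499 to 810, 1.28), both pair-rule or gap genes with low pulse values. Other sources gave this list -0.04 (scanner files, 18 of 44 above) and -0.30 (U+actD, 10 of 44 above). Signal feedback genes had a median of -0.09 with 12 of 28 above. They included ImpL2 at the high end (53239 to 77910, the chase at the top of the scale) and the rhomboid gene ru at the low end (909 to 83.2). Like gt, ru had a chase value under the lowest pulse value. The scanner files had the feedback list on the other side, at 0.20 with 18 of 30 above, and U+actD had it at -0.29 with 10 of 32 above. For mRNA decay factors and translational repressors the median was -0.26 with 21 of 47 above, with -0.23 in the scanner files and 0.04 in U+actD. The repressor gene pum went from 9366 to 4581 (-0.45, probes at -0.57 and -0.34) and was low in the scanner files (-1.55) and in U+actD (-0.53) as well. Messages used as loading references in other assays had a median of 0.49 over 13 genes in the table, and the 8 of them below the top of the scale had 0.25 with 5 above: Act5C was at 70815 and 78683, RpL32 at 71257 and 78718, RpS9 at 57346 and 85196, and Gapdh1 at 1032 and 1251. The first 3 of these were at the top of the scale. In the scanner files the list was at 0.13 with 8 of 13 above, and these 4 genes were at or below the median gene, at -0.0037 for Act5C, -0.38 for RpL32, -0.33 for RpS9 and -0.39 for Gapdh1.

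The change in the first hour followed the length of the gene on the chromosome, taken as the span in the RefSeq annotation. In 5 groups of 1668 genes by span, the median relative change in the UO table was 0.40, 0.19, 0.01, -0.18 and -0.36 from the shortest to the longest. The share of genes above the median gene went from 74.0% to 24.6% in the same order. Genes 1 log2 above the median gene had a median span of 1465 bp and those 1 log2 below one of 4767 bp, where all genes had 2812 bp. U+actD showed the same order with smaller steps, from 0.26 to -0.21, and the scanner files did not, with -0.20 in the shortest group and medians from 0.00 to 0.09 in the others. Signal moved with the change as well: by 5 equal groups of mean signal the medians of the UO table ran from -0.24 in the dimmest to 0.21 in the brightest. By groups of the pulse value alone the brightest group was at 0.12, and the others lay between -0.04 and -0.01 without a trend.

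Several lists above differ in span, from a median of 910 bp for mitochondrial ribosomal protein genes to 23184 bp for axon guidance genes. Relative to genes of like span, the median was 0.54 for cytosolic ribosomal proteins, 0.36 for the respiratory chain, 0.44 for translation factors, 0.43 for cell cycle genes and 0.45 for histones. It was 0.03 for mitochondrial ribosomal proteins, with 40 of 71 above. On the low side it was -0.30 for synaptic genes (11 of 43 above), -0.21 for muscle genes (16 of 45), -0.16 for kinases and -0.12 for axon guidance genes (25 of 62). The neural fate factors were at 0.02 and the homeotic and segmentation genes at 0.11. The cuticle list was at -0.04 (27 of 58 above) and the mRNA decay factors and translational repressors at 0.07. Each of these last lists lay on the other side of 0 before span was taken into account.

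The small chromosome 4, whose genes lie in chromatin rich in heterochromatin proteins, stood apart from the other arms. Its 71 genes in the UO table had a median relative change of -0.57 (95% order interval over genes -0.75 to -0.38), with 14 above the median gene. Of the 71, 2 stood 1 log2 above and 15 stood 1 log2 below, where 4.58% and 7.45% of all genes did. The other arms had medians between -0.01 and 0.02. Genes of chromosome 4 were long, with a median span of 10463 bp, and relative to genes of like span their median was -0.28, with 17 of 71 above. Among bright members PlexB, a semaphorin receptor gene, went from 53190 to 15375 (-1.21), the Hedgehog effector ci from 65868, at the top of the scale, to 25193 (-0.81) and the Polycomb group gene pho from 45904 to 18246 (-0.75). The high members were RpS3A, a ribosomal protein gene (43250 to 63729, 1.14), and fuss (1523 to 4181, 2.03). These genes were picked after their values were seen. U+actD had a smaller median of the same sign, -0.23 with 24 of 74 above, and the scanner files were at 0.02 with 38 of 71 above.

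**Figure D5:**
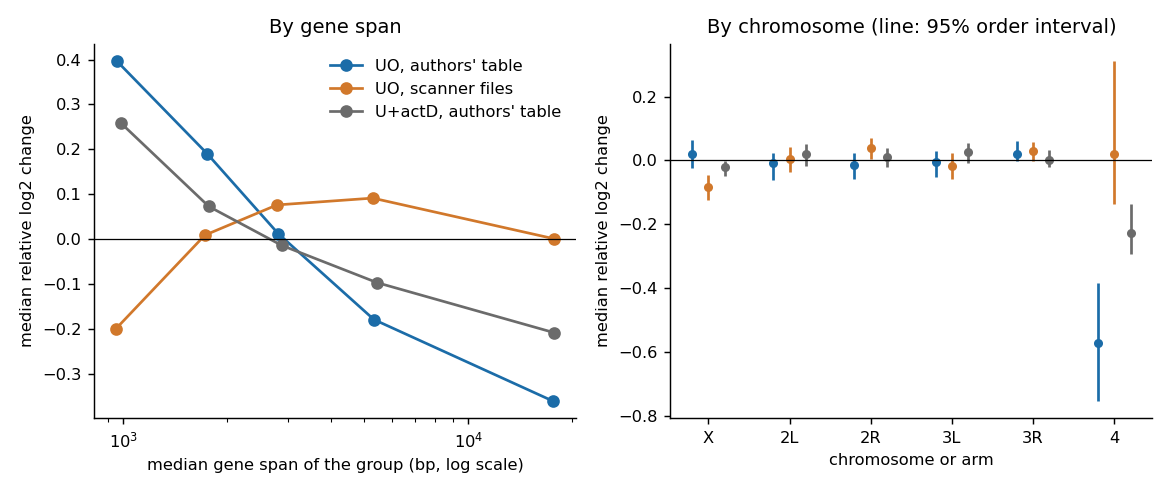
Median log2 change in the first hour relative to the median gene, by 5 equal groups of gene span (left, log axis in bp) and by chromosome (right, with 95% order intervals over genes), in the UO table, the UO scanner files and the U+actD table. The UO table goes from 0.40 in the shortest group to -0.36 in the longest and is at -0.57 for chromosome 4.

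Among genes of at least median signal, the largest changes of the UO table rested on 1 probe each, with bt as the only exception among the 12 lowest. IFT52, an intraflagellar transport gene, went from 46444 in the pulse to 251 in the chase and 128 at 3 hours (-6.95), and its pulse signal in the scanner file was 53. The glutathione transferase gene GstD2 went from 10657 to 1310 (-2.45), RhoGAP100F, a GTPase regulator gene of synapses, from 13947 to 2321 (-2.01) and mesh, a septate junction gene of the gut, from 11758 to 2397 (-1.72). The other low genes were CG12862, CG8908, CG5618, SmydA-7, TTLL4A, stv and the pseudogene CR14578, between -2.43 and -1.72. At the high end ntc, a ubiquitin ligase adaptor gene of the testis, went from 958 to 48940 and then to 83.0 at 3 hours (6.25). CG14693 went from 1896 to 37827 and then 589 (4.90), SLIRP2 from 2895 to 17038 and then 1220 (3.13), and TFAM, the mitochondrial DNA packaging factor gene, from 6743 to 39072 and then 1851 (3.11). These 4 chase values were not matched elsewhere: the same genes were between -0.40 and 0.29 in the scanner files and between 0.14 and 0.44 in U+actD. Clc, a clathrin light chain gene (9336 to 25056), CG14135, eEF1gamma, CG13369, eIF3d1, MED22, Snr1 and pch2 completed the 12 highest, the last 7 between 1.55 and 1.81.

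Changes carried by several probes were smaller. Of 485 genes of at least median signal with 2 or more probes, 4 had every probe 1 log2 below the median gene and 3 had every probe 1 log2 above it. The low ones were bt, nahoda (11964 to 2903), rg, a kinase anchoring gene (7023 to 1975), and trx, the trithorax histone methyltransferase gene (37960 to 10805). The high ones were COX7B, a cytochrome oxidase subunit gene (11304 to 17726), Drsl5, a drosomycin-like gene (8658 to 13419), and RpS29 (51654 to 80697, the chase at the top of the scale). In the scanner files bt was at 0.45, nahoda at 1.68, rg at 0.51 and trx at -0.36, while COX7B was at -0.59, Drsl5 at -0.14 and RpS29 at -0.51.

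Some bright genes had the same sign in both UO sources, where 42.1% of all genes do. The low ones with the largest smaller change were Nxf3, an RNA export family gene (-1.11 in the table and -1.29 in the scanner files), Sema1a (-1.11 and -0.86), wts (-0.82 and -1.29) and the Mediator subunit gene MED26 (-0.94 and -0.82). After them came pan, the TCF of the Wingless pathway (-0.80 and -0.88), Ask1, a stress kinase gene (-0.80 and -0.78), RhoGAPp190 (-0.83 and -0.76) and Syx1A (-0.83 and -0.76). The probes of pan did not move together, at -1.83 to 0.44 over 4 probes. In U+actD, Ask1 was at -0.36, RhoGAPp190 at -0.37, Sema1a at -0.31 and wts at -0.16, and the other 4 were between 0.07 and 0.70. The high genes held in both were Hsp23, Hsp68, Hsp83, alphaTub84B, the alpha-tubulin of most cells (47483 to 80178; 1.33 and 1.68), and Sirup, a succinate dehydrogenase assembly gene (1.13 and 2.58, with table probes at 0.94 and 1.31). CG13159 (1.08 and 1.20), the initiation factor subunit gene eIF3d1 (1.70 and 1.06) and RpL37A (1.04 and 1.15) were the others. Of the 8, Hsp23, Hsp83, alphaTub84B and RpL37A were at the top of the scale in the table's chase, and alphaTub84B and RpL37A had a saturated probe in the scanner files, so their values are not exact changes. All 8 were above the median gene in U+actD, between 0.34 and 1.94. There Hsp23, Hsp68, Hsp83, alphaTub84B, RpL37A and CG13159 had chase values of 115553 to 124476, near that column's highest value of 125439. These U+actD values are therefore not exact changes either.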

How the data were processed

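Tagged RNA of 2 samples, the UO 1-hour pulse and the UO 1-hour chase, was compared, with the U+actD pair beside it. The authors added spike-in RNA, labelled with Cy3 and hybridised 1 single-channel array per sample; the headers of the deposited scanner files give foreground and background intensity for 45220 spots and the percent of saturated pixels. The deposited table holds intensity values that the authors normalized, left blank for part of the spots and, for UO, carry factors of 1.09 and 1.3. Blank spots followed the pulse: the lowest UO pulse value was 300.8 and the lowest chase value 2.60, so genes dim in the pulse could not enter. The scanning software and the genome build are not given in the sources used here.

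Values were averaged as log2 over spots of a probe and probes of a gene. Of 32162 probes, 20768 were named, 14512 through the platform annotation and 6256 through the name in the file, updated through RefSeq. Scanner signals were mean foreground minus local background, which was 0 at 51.7% and 46.0% of spots. Probes above the 95th percentile of 153 negative control spots (51 and 54) on both arrays were kept: 15400 of 17545 and 18358. The chase was scaled by 0.408 on 5 of 10 spike-in transcripts that were unsaturated and above background. Probes with at least 50% saturated pixels were called saturated. Normexp used limma 3.58.1 (R 4.3.3). Python 3.11.15, pandas 2.3.3, numpy 2.4.6, scipy 1.17.1 and matplotlib 3.10.9 were used, and the counting steps were tested on simulated data. The U+actD values are those of the deposited table, with U+actD ceilings of their own.

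With 1 array per group no test was run, and precision is limited by having so few arrays. A gene stood apart at 1 log2 from the median gene. Medians have binomial order intervals at 95%, which treat genes as independent. Changes relative to genes of like span or signal used a running median of 401 genes. The members and the 30 gene lists were chosen with earlier results of these data known. Named genes were the 12 highest and 12 lowest relative changes of at least median signal, the 8 in each direction held in both UO sources, genes the study or assay points to, and each list's highest, lowest and middle member. Genes with every probe past the fold, subsets of lists, and genes said to be picked afterwards were added. The regular expression of the respiratory chain list and the names of the mitochondrial genome list were corrected once the files were read. Dl and Hr38 from the rule, and the markers Hml and nos, had no value in the genes used here. A result that the rule would name is not reported here. No sequence or coordinate is shown, since none was held in the sources of a stated build.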

Additional observations from a re-analysis of the deposited data

Results flagged for a closer look

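Ribosome biogenesis genes had a median relative change of 0.20 in the UO table, with 22 of 30 above the median gene, and of -0.16 in U+actD, with 9 of 33 above. They were picked out because the medians of the list have opposite signs with and without actinomycin D. The difference was not tested, since each group has 1 array, and the UO scanner files gave -0.17. Of the 30 genes, 5 were at the top of the scale in the table.

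GstD2, a glutathione transferase gene measured with 1 probe, had a relative change of -2.45 in the UO table (10657 to 1310) and of 2.81 in U+actD (3472 to 15335). The opposite directions drew attention to it, and the difference was not tested. In the UO scanner files it was at 0.33, with signals of 86.5 and 70.0.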

How the results depend on the processing

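No paired analysis was possible because each group holds 1 array. The median percent of the pulse value left, 67.0% in the UO table, was 64.3% in the UO scanner files, 56.2% without the table's factors, 97.4% after scaling the table on the 75th percentile, 69.0% without the dimmest 25% of genes, and 97.02% and 99.04% in scanner files scaled on the 75th percentile or by quantiles. The counts of 382 and 621 genes past the fold became 1393 and 1514 at 1.5-fold, and 237 and 276 without the dimmest 25% of genes. List medians that changed sign in the UO scanner files were cytosolic ribosomal protein (-0.38), mitochondrial ribosomal protein (-0.30), respiratory chain (-0.18), proteasome (-0.13), translation factor (-0.054), histone (-0.65), synaptic and excitability (0.25), muscle and mesoderm (0.44), protein kinase (0.063), splicing factor (-0.082), ribosome biogenesis (-0.17), signal feedback (0.20), tracheal (0.10), glial (0.17), cell death (0.18) and endoderm and gut (-1.25). Others that moved there were axon guidance (-0.070), cell cycle (0.053), heat shock (1.25) and hemocyte and fat body (0.43). With normexp background correction of the scanner files, the sign differed from the table for cytosolic ribosomal protein (-0.29), mitochondrial ribosomal protein (-0.23), respiratory chain (-0.10), proteasome (-0.11), translation factor (-0.022), histone (-0.50), axon guidance (0.0083), synaptic and excitability (0.039), muscle and mesoderm (0.19), protein kinase (0.019), splicing factor (-0.048), ribosome biogenesis (-0.18), signal feedback (0.050), tracheal (0.014), glial (0.079), cell death (0.049) and endoderm and gut (-0.19), and the medians of cell cycle (0.028), heat shock (1.13) and hemocyte and fat body (0.19) moved. Relative to genes of like signal, a setting chosen after seeing the data, values were cytosolic ribosomal protein (0.12), respiratory chain (0.39), translation factor (0.19), histone (0.53) and ribosome biogenesis (-0.0066). The heat shock median (-0.043) changed sign there as well. Relative to genes of like span, also chosen afterwards, they were cytosolic ribosomal protein (0.54), mitochondrial ribosomal protein (0.027), respiratory chain (0.36), proteasome (0.22), histone (0.45), signal feedback (0.17), axon guidance (-0.12), synaptic and excitability (-0.30), protein kinase (-0.16), hemocyte and fat body (0.20) and endoderm and gut (-0.12). The sign also changed relative to like span for neural fate transcription factor (0.021), homeotic and segmentation (0.11) and cuticle (-0.044) genes. It changed as well for mRNA decay and translational repressor (0.072), maternal and germline (0.10) and glial (0.17) genes. Leaving out genes at the top of the scale gave 0.87 for cytosolic ribosomal proteins. Single genes with a call of the other sign in the scanner files were CG5618 (1.20), Ccp84Ad (-7.09), Gs2 (-1.15), ImpL1 (2.71), dhd (-1.31), mesh (1.57), nahoda (1.68), stv (1.14), verm (1.60), zetaTry (-1.40). Centring on the 75th percentile, using the brightest probe, and keeping genes shared with the other UO source or with U+actD moved none of the counts and list medians they were run on past the spread. The causes were not tested. In the scanner source the median pulse signal was 446 against a background threshold of 51.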

Other observations

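Maternal and germline genes had the widest spread of the lists not described above. Their median relative change in the UO table was -0.22 over 32 genes, with 7 genes 1 log2 above the median gene and 5 genes 1 log2 below it, where 4.58% and 7.45% of all genes were. The translational repressor gene smg was lowest, at 627 in the pulse and 57.2 in the chase (-2.88), and the thioredoxin gene dhd highest, at 862 and 1914 (1.73). The chase value of smg lay under the lowest pulse value of the table, 300.8, so it could enter only as a fall. In U+actD their median was 0.50, with dhd at 2.81 and smg at 0.88, and the scanner files placed dhd at -1.31. The germ line helicase gene vas went from 1388 to 454 (-1.04). Relative to genes of like span the median of the list in the UO table was 0.10, with 17 of 32 above.

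Tracheal genes had a median of -0.25 with 8 of 26 above the median gene, glial genes -0.17 with 10 of 23 above and cell death genes -0.23 with 9 of 24 above. The scanner files had all 3 lists on the other side, at 0.10 with 15 of 26 above, 0.17 with 15 of 24 and 0.18 with 14 of 23, and U+actD had them at -0.34, -0.13 and -0.13. Within them the receptor gene btl was the highest tracheal gene (6571 to 6009, 0.45), Gs2, a glutamine synthetase gene, the highest glial gene (3287 to 5070, 1.20, against -1.15 in the scanner files and 1.94 in U+actD) and Buffy, a Bcl-2 family gene, the lowest cell death gene (662 to 111). With a chase value under the lowest pulse value, Buffy could enter only as a fall. Relative to genes of like span the glial list was at 0.17 in the UO table, with 14 of 23 above. Ecdysone response genes had a median of -0.40 with 7 of 23 above, with -0.15 in the scanner files and 0.03 in U+actD. ImpL1, the lowest of these, went from 25815 to 5607 (-1.63) in the UO table, but was at 2.71 in the scanner files and 0.83 in U+actD. Hemocyte and fat body genes lay on the median gene, at 0.03 with 14 of 25 above, in the UO table, and above it in the scanner files (0.43, 20 of 26 above) and in U+actD (0.37, 20 of 27 above). Of the long non-coding RNAs listed, 1 had values, lncRNA:CR31044 (530 to 403, 0.18).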
